A study of Laetiporus sulphureus with 6 samples.

Results

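The cytochromes P450 of the brown-rot fungus *Laetiporus sulphureus* ATCC 52600 were followed in mycelium before and after exposure to sugarcane bagasse. The study's list of wood-decay genes assigns the function P450 to 175 gene models, each carrying the P450 domain PF00067, and the 158 of them that are rows of the deposited count table of 10015 genes are described here. The other 17 listed genes were not analysed here. Each gene of the table had at least 1 count per 1000000 counts (CPM) in every library, so a P450 gene that was silent in either condition is not among the 158, and the numbers below refer to expressed genes only.

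The 6 libraries came from mycelium of 1 strain. The study's methods do not state whether T0 and BIN mycelium shared pre-inoculum cultures. T0, the reference, was mycelium grown from 15 agar discs in 100 mL of liquid medium for 7 days at 30 °C with shaking at 180 rpm. BIN was mycelium grown in the same way, filtered, washed and moved for 24 h to a mineral salts medium at pH 7.0 in which 1 g of in natura (untreated) bagasse was the added plant material. There were 3 biological replicates in each group, with total counts from 9541028 to 15331728 per library. No library of mycelium moved to the salts medium without bagasse was analysed here, so the effect of the transfer and the effect of the bagasse cannot be told apart. RNA was taken from whole mycelium, in which fewer cells of a kind and less RNA per cell cannot be told apart.

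Cytochromes P450 are heme-thiolate enzymes that insert an oxygen atom from molecular oxygen into their substrates. The fungal microsomal forms receive electrons from NADPH through a P450 reductase, and some also from cytochrome b5. Wood-decay basidiomycetes carry large P450 families, a few members of which have housekeeping roles such as the demethylation of sterol precursors, while many others act on plant and wood extractives, aromatic compounds and fungal secondary metabolites. The list gives the family domain but no subfamily or substrate for any of the 158 genes, so no role is assigned to a single member below. Genes carry the numbers of the gene predictor, and no sequence of this strain was used here.

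Members called lower outnumbered those called higher in BIN. In the comparison of BIN with T0 by edgeR's quasi-likelihood test, a gene was called at a Benjamini-Hochberg adjusted p of at most 0.05 over the 10015 genes together with a log2 fold change of 1 or more in size. By this rule 47 of the 158 genes (29.7%) were called lower and 19 (12.0%) were called higher, while 92 were not called. Over all genes the background was 14.5% called lower and 11.3% called higher. The share called higher was therefore close to that of the whole table, and the share called lower was larger. In either direction 66 members (41.8%) were called, beside 25.9% of all genes. The median log2 fold change of the P450 genes was −0.43, with quartiles at −1.32 and 0.30, against −0.00 with quartiles at −0.60 and 0.54 over all genes.

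Changes past 4-fold showed the same imbalance. A log2 fold change beyond 2 in size was reached by 29 of the genes called lower and by 8 of those called higher, where 4.18% of all genes were that much lower and 2.96% that much higher. With no condition on fold, 116 members had an adjusted p of at most 0.05, of which 79 were lower and 37 higher in BIN, beside 35.9% lower, 35.2% higher and 71.1% in all over the table. The 3 BIN libraries all lay below the 3 T0 libraries for 81 members (51.3%) and all above them for 37 (23.4%), beside 38.0% and 37.6% of all genes, and the groups overlapped for 40 members. Of the 66 called members, g9752 was the only one whose groups overlapped. Its normalized CPM was 3.87, 1.55 and 1.73 in T0 and 6.21, 4.89 and 3.11 in BIN. Near the fold threshold, 7 called and 12 uncalled members had a log2 fold change between 0.9 and 1.1 in size.

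Levels of different genes were compared as transcripts per 1000000 transcripts (TPM), which are divided by gene length. The P450 genes spanned a wide range in both conditions. In T0 their mean TPM ran from 0.902 to 1902, a 2109-fold range with a median of 14.2, and in BIN from 0.939 to 454, a 483-fold range with a median of 13.7. The SD of the log2 level among members was 2.37 in T0 and 1.87 in BIN, against 2.05 and 1.87 among all genes. Under 10 TPM there were 64 members (40.5%) in each condition, beside 2500 of all 10015 genes in T0 and 1705 (17.0%) in BIN. At the upper end, 25 members (15.8%) had at least 100 TPM in T0, beside 15.5% of all genes, and 14 (8.86%) did so in BIN, beside 17.7%. Of these, 10 members reached that level in both conditions.

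**Figure D1:**
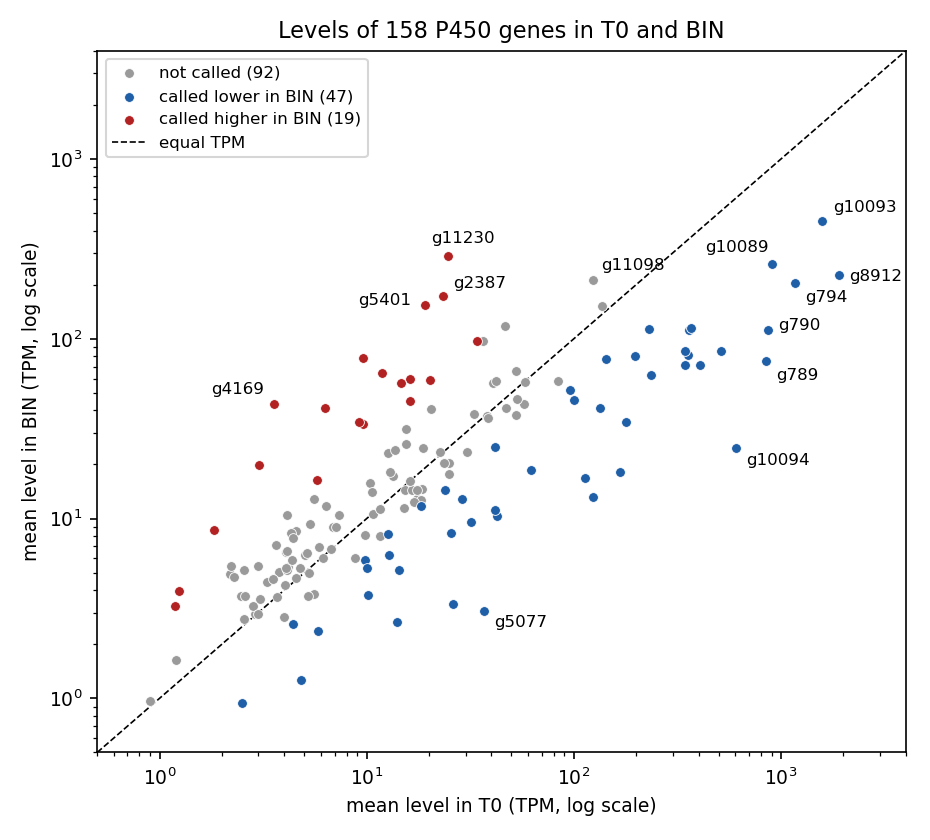
Mean TPM of the 158 P450 genes in T0 (horizontal axis) and BIN (vertical axis), both on log scales, n = 3 libraries each; each point is 1 gene, coloured by its call from edgeR, and the dashed line marks equal TPM. The genes of the right-hand end all lie below the line, while g11230, g2387 and g5401 have 19.0 to 24.7 TPM in T0 and 154 to 289 TPM in BIN.

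The P450 genes together took a smaller part of the transcript pool in BIN. Their summed TPM was 14050, 16050 and 13739 in the T0 libraries and 5988, 5969 and 5800 in the BIN libraries. The groups did not overlap, and the sum corresponded to 1.46% ± 0.13 of all TPM in T0 and 0.592% ± 0.010 in BIN (SD, n = 3). The BIN mean was 40.5% of the T0 mean in TPM and 30.7% of it in normalized CPM. Genes called lower went from a summed mean of 12771 TPM in T0 to 2705 in BIN, genes called higher from 232 to 1281, and those not called from 1610 to 1933. These sums by call repeat the calls and are given as a description.

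**Figure D2:**
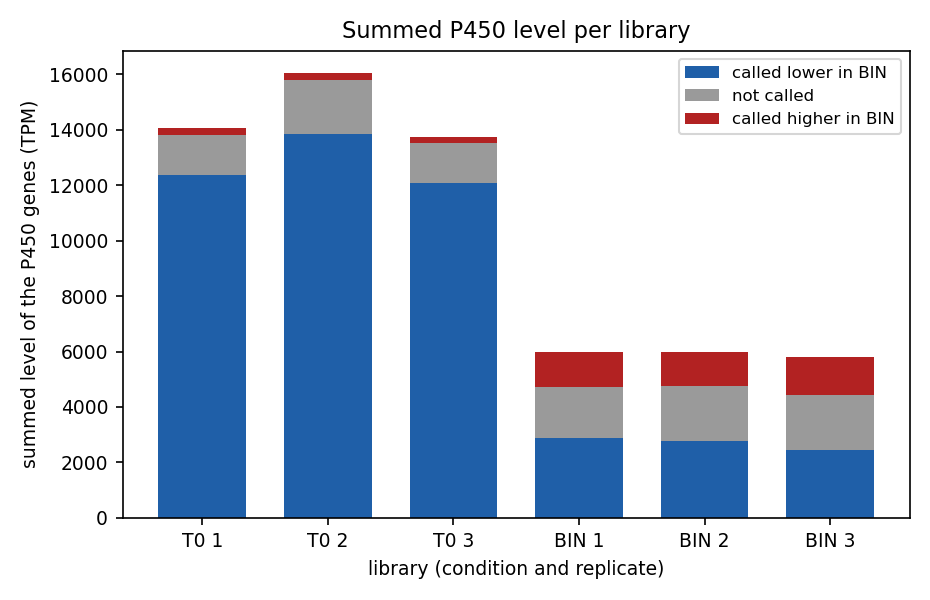
Summed TPM of the 158 P450 genes in each of the 6 libraries, split by call; the bars start at 0. The 3 T0 bars lie between 13739 and 16050 TPM and the 3 BIN bars between 5800 and 5988, and the genes called lower make up most of each T0 bar.

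TPM and normalized CPM do not put the conditions on the same scale. The median of all genes was 0.40 higher in BIN on log2(TPM + 1), whereas it was at −0.00 after TMM normalization of the counts. On log2(TPM + 1) the median of the P450 genes was 0.016, so that it lay below the median of all genes on both scales. The split of calls was 23 higher and 34 lower on log2(TPM + 1) by limma, where 21.3% of all genes were higher and 7.29% lower, beside 19 and 47 in the count test. With the smaller pseudocount of 0.1 it was 28 higher and 36 lower, where 24.1% and 7.68% of all genes were called. A test of the counts against the fold threshold itself (glmTreat) left 13 higher and 39 lower, where 7.36% and 9.15% of all genes were called. For this reason TPM is used below for the order of genes within a condition, and normalized CPM and the edgeR fold change for the difference between conditions.

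The pool was concentrated on few genes in T0. The 6 most abundant members held 49.7% of the summed mean TPM in T0, and the 6 most abundant in BIN held 27.8% there. In T0 these were g8912 with 1902 ± 193 TPM, g10093 with 1582 ± 392, g794 with 1169 ± 168, g10089 with 906 ± 85.7, g790 with 863 ± 33.6 and g789 with 845 ± 74.6 (SD, n = 3). The last 3 differed by less than the larger of their SDs, as did g8912 and g10093. In BIN the order was g10093 with 454 ± 56.5 TPM, g11230 with 289 ± 9.85, g10089 with 260 ± 4.81, g8912 with 226 ± 27.9, g11098 with 211 ± 15.1 and g794 with 204 ± 11.0, of which the last 3 were within the SD of g8912. Thus g10093, g10089, g8912 and g794 were among the first 6 in both conditions.

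The high TPM of g10093 goes with its length. Its coding length was 312 bases, the shortest of all members, and in normalized CPM it ranked 12 in T0 and 20 in BIN.

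All 6 of the most abundant members in T0 were called lower, as were all of the first 20. More broadly, 23 of the 25 members with at least 100 TPM in T0 were called lower and none was called higher, beside 41.8% lower and 4.45% higher among all genes at that level in T0. Genes of the whole table at that level were thus themselves called lower more often than the 14.5% of all genes. Of the first 20 members in BIN, 12 were called lower, 4 higher and 4 neither. At 100 TPM or more in BIN, 8 of 14 members were called lower and 3 higher. Among all genes at that level in BIN, 19.5% were called lower and 20.4% higher. The lists of the first 20 in T0 and in BIN shared 12 genes.

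The members were therefore also grouped by their mean normalized CPM over all 6 libraries, which weights both conditions alike. This mean follows the condition in which a gene is higher. Genes that changed far can thus enter an upper class through T0 or BIN alone, such as g10094 with means of 840 in T0 and 25.2 in BIN. The shares called in the upper classes are therefore partly set by the grouping, for members and for all genes. Of the 38 members with a mean of at least 100, 25 (65.8%) were called lower and 5 (13.2%) higher, beside 22.3% and 16.5% of all genes at that level. In the class from 30 to 100, 28.1% of 32 members were called lower, beside 12.1% of all genes. Between 10 and 30 the share was 15.2% of 33 members beside 13.0%, and below 10 it was 14.5% of 55 members beside 11.6%. With classes set in this way, the excess of lower calls over the table was found in the upper ones. The median log2 fold change of members was −2.11 in the highest class and −0.08 in the lowest, beside −0.02 and 0.05 for all genes. The grouping affects these medians as well. Calls of higher genes were 18.2% and 15.6% of members in the middle classes, beside 9.49% and 9.55% of all genes, and 5.45% in the lowest class beside 10.5%.

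**Figure D3:**
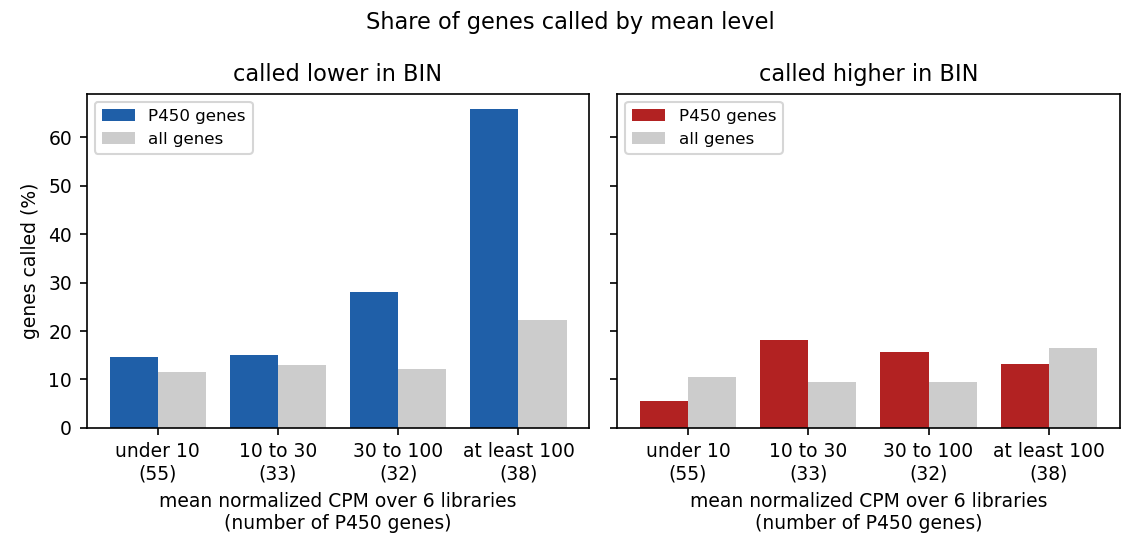
Share of genes called lower (left) and higher (right) in BIN by edgeR, in percent, for classes of mean normalized CPM over the 6 libraries; coloured bars are the P450 genes, with their number under each class, and grey bars are all genes of the table. At a mean of at least 100 CPM, 65.8% of the P450 genes and 22.3% of all genes were called lower.

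The marker gene g10094 had the largest fall of the family. Its normalized CPM was 931, 750 and 839 in T0 and 26.9, 25.6 and 23.0 in BIN. Each T0 library was thus far above each BIN library, and the log2 fold change was −5.06 ± 0.13 (SE), with an adjusted p of 1.4e-08 by edgeR. In TPM it stood at 605 ± 25.4 in T0, the seventh highest level of the family, and at 24.7 ± 2.09 in BIN.

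Abundant genes were among the other large falls. For g8912, the most abundant member of T0, normalized CPM was 4166, 4386 and 4597 in T0 and 439, 375 and 345 in BIN, without overlap. Its log2 fold change was −3.50 ± 0.15, with an adjusted p of 1.1e-07 by edgeR. The consecutive genes g789 and g790 fell together. Values for g789 were 1909, 1938 and 1939 in T0 and 148, 134 and 98.0 in BIN, a log2 fold change of −3.93 ± 0.17, and values for g790 were 1921, 1666 and 1756 against 202, 164 and 145, a change of −3.39 ± 0.15. A few numbers further, g794 had 2182, 2466 and 2316 in T0 and 307, 309 and 286 in BIN, a change of −2.95 ± 0.12.

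Other members with large falls were less abundant in T0 than g8912, g789, g790 and g794. Their T0 means ran from 55.8 normalized CPM for g9414 to 989 for g7144. Values of g5077 were 63.0, 92.3 and 68.4 in T0 and 4.22, 5.20 and 4.56 in BIN, which gave a log2 fold change of −4.00 ± 0.17, the second largest fall. For g1541 they were 322, 324 and 348 against 25.3, 27.6 and 26.5, and the change was −3.65 ± 0.09. The libraries of each group lay close together for g1541, as its small SE shows. For g10339 the T0 values were 284, 211 and 208 and the BIN values 21.6, 18.0 and 16.1, a change of −3.66 ± 0.16. The 10 largest falls were completed by g9414 at −3.41 ± 0.28, g9916 at −3.18 ± 0.14 and g7144 at −3.02 ± 0.16. The larger SE of g9414 went with its T0 values of 60.4, 35.9 and 71.3. For all of these genes the groups were apart.

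The genes that rose started from low or middle levels. The 19 genes called higher had a median of 9.64 TPM in T0 and none had more than 34.1 there, and in BIN their median was 45.3 TPM. The 47 genes called lower had medians of 99.9 TPM in T0 and 18.7 in BIN. These medians in part repeat the calls, which are set by the difference between BIN and T0. The marker g4169 had the largest rise. Its normalized CPM was 3.53, 6.63 and 3.53 in T0 and 39.1, 41.2 and 45.0 in BIN, with all BIN libraries above all T0 libraries. The log2 fold change was 3.17 ± 0.22, with an adjusted p of 2.5e-06 by edgeR.

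The riser that reached the highest level was g11230, the second most abundant member of BIN. Its values were 78.7, 34.9 and 35.5 in T0 and 436, 398 and 433 in BIN. T0 replicate 1 stood above the other T0 libraries but well under the BIN libraries, and the log2 fold change was 3.10 ± 0.34 with an adjusted p of 0.00017 by edgeR. Without T0 replicate 1 the change was 3.57.

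Both g2387 and g5401 also became abundant. For g2387 the values were 46.7, 42.2 and 43.5 in T0 and 249, 224 and 250 in BIN, a log2 fold change of 2.45 ± 0.08. For g5401 they were 41.7, 46.7 and 32.6 in T0 and 225, 209 and 295 in BIN, a change of 2.59 ± 0.17. They held 173 ± 8.02 and 154 ± 27.3 TPM in BIN, the seventh and eighth ranks. The other large rises were g3725 at 2.59 ± 0.12, g6377 at 2.29 ± 0.12, g7067 at 2.28 ± 0.13 and g6378 at 2.02 ± 0.10. In normalized CPM their BIN means ran from 28.2 for g7067 to 117 for g3725, and in each the groups did not overlap.

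**Figure D4:**
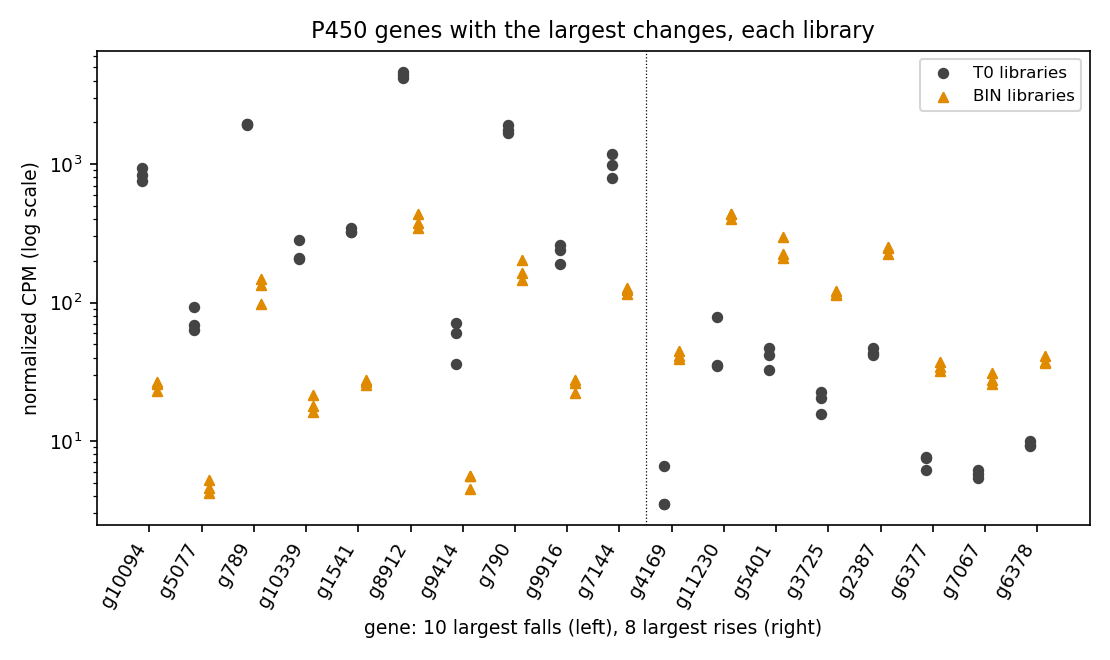
Normalized CPM on a log scale in each of the 3 T0 libraries (circles) and 3 BIN libraries (triangles) for the 10 P450 genes with the largest falls and the 8 with the largest rises, ordered by log2 fold change. The groups are apart for all 18 genes, and the T0 values of g8912 lie between 4166 and 4597 while those of g4169 lie between 3.53 and 6.63.

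Some abundant members did not pass the fold threshold. The fifth most abundant member in BIN, g11098, had 292, 268 and 228 normalized CPM in T0 and 319, 355 and 328 in BIN, a log2 fold change of 0.34 ± 0.11 with an adjusted p of 0.017 by edgeR. The gene with the next number and the same coding length of 1653 bases, g11099, was called lower at −1.61 ± 0.12. Selected after its values were seen, g8317 had 178, 250 and 183 in T0 and 157, 167 and 184 in BIN. Its groups overlapped, and its log2 fold change of −0.27 ± 0.13 had an adjusted p of 0.10 by edgeR.

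Replicates of the P450 genes were closer in BIN than in T0, as were those of all genes. In both conditions they varied somewhat more than over all genes. The median coefficient of variation of normalized CPM was 13.6% in T0 and 8.00% in BIN, against 10.3% and 6.73% over all genes. No member had a library 4 times another of the same group. A ratio of at least 2 was found for 10 members in T0 and for 1 in BIN, and the last was g11636, with 1.08, 2.92 and 3.26 in BIN and a log2 fold change of −2.82 ± 0.29. T0 replicate 2 was the highest of the T0 libraries for 74 members (46.8%), against 39.8% of all genes. The genes g1353 and g9370, chosen after their values were seen, were examples. For g1353 the T0 values were 50.2, 129 and 83.1 against 14.8, 16.1 and 17.5 in BIN, and the change was −2.45 ± 0.35. For g9370 they were 269, 662 and 349 against 178, 162 and 135, and its change of −1.43 ± 0.33 became −0.98 without T0 replicate 2, short of the threshold.

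Some P450 genes lie at consecutive gene numbers. Numbers follow the order in which the predictor named the models. Scaffold ends were not known here, so genes with close numbers are likely but not certain to be neighbours. Of the 33 pairs of members with consecutive numbers, 5 were both called lower, 2 were both called higher, 1 had opposite calls, 14 had 1 called gene and 11 had none. The share called in the same direction was 21.2%, beside 6.02% of the 9006 such pairs over all genes. The share of single genes called in either direction was also larger among P450 genes, as given above. In 3 of the pairs called in the same direction both models had under 1100 bases. These were g6377 with g6378, g9350 with g9351 and g10093 with g10094, and whether they are separate genes was not tested. Pairs that fell together were g789 and g790, g9350 and g9351, g10092 and g10093, g10093 and g10094, and g11669 and g11670, while g6377 with g6378 and g8859 with g8860 rose together. Some of these calls were lost under other settings. With glmTreat g9350, g9351 and g8859 were not called (adjusted p of 0.091, 0.29 and 0.22). On log2(TPM + 1) the changes of g9350, g9351, g11669 and g11670 were −0.90, −0.66, −0.81 and −0.85, and on log2(TPM + 0.1) those of g9350, g9351 and g11669 were −0.98, −0.74 and −0.91, all short of the threshold.

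The pair with opposite calls was g9147 and g9148. The first had 9.34, 10.4 and 9.01 normalized CPM in T0 and 4.30, 4.81 and 4.71 in BIN, a log2 fold change of −1.05 ± 0.14. The second had 8.88, 11.1 and 7.20 in T0 and 20.1, 17.6 and 20.3 in BIN, a change of 1.09 ± 0.16. In TPM, which takes account of their lengths of 585 and 1236 bases, g9147 was at 12.7 ± 1.99 in T0 and 8.24 ± 0.57 in BIN, and g9148 at 5.73 ± 1.67 and 16.4 ± 1.05. The first was thus the higher of the pair in T0 and the lower in BIN. Both changes were close to the threshold. The call of g9147 was lost without T0 replicate 2 (−0.99) and that of g9148 without T0 replicate 3 (0.94). With glmTreat neither was called (adjusted p of 0.63 and 0.51). The change of g9147 was also short of the threshold with library size alone (−0.92) and with the length trend removed (−0.78). On log2(TPM + 1) and log2(TPM + 0.1) it was −0.56 and −0.61.

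Longer runs, of at least 3 listed P450 genes with each number at most 3 above the one before, numbered 10. They held 35 listed and 32 tested genes, of which 9 were called lower and 2 higher. Over all members 29.7% were called lower and 12.0% higher, and over all genes 14.5% and 11.3%. The run from g10089 to g10094 fell as a whole. Its 4 tested members changed by −2.24 ± 0.12 (g10089), −2.10 ± 0.14 (g10092), −2.26 ± 0.23 (g10093) and −5.06 ± 0.13 (g10094). Of the 8 tested non-members within 3 numbers of it, 5 were called lower. These were g10090 at −2.85, g10091 at −3.27, g10095 at −2.96, g10096 at −3.42 and g10097 at −3.61. The last has the P450 domain but stands in the study's list as a redox gene, so it was not counted as a member. On one side the block ended at g10089, since g10086, g10087 and g10088 had changes between −0.06 and −0.03, and on the other the genes after g10097 were mixed, with g10098 at 0.72 and g10099 at 0.36, both not called, and g10100 called lower at −1.48.

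In the run from g11667 to g11674, all 6 tested members had negative log2 fold changes. Of these, 3 were called lower, g11667 at −2.05, g11669 at −1.35 and g11670 at −1.84, while g11668 at −0.25, g11672 at −0.70 and g11674 at −0.44 were not. Of the 8 tested non-members near this run, g11666 was called lower at −1.20 and the redox gene g11676 was called higher at 2.34. The run around the marker g4169 moved in both directions. Its other members g4167, g4168 and g4170 had log2 fold changes of −0.73, −0.07 and −0.97 and were not called, although g4170 passed the threshold, at −1.06 to −1.05, without BIN replicate 1, BIN replicate 3, T0 replicate 1 or T0 replicate 3. A non-member near them, g4172, was called higher at 1.29, and g4164 was called lower at −1.27. The P450 gene g4163, a few numbers before the run, was called higher at 1.45.

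The remaining runs held few called genes. In g4799 to g4805 1 of 3 members, g4802, was called higher at 1.52 ± 0.11, and in g744 to g746 g745 was called lower at −2.32 ± 0.28. In g1993 to g1995 the only tested member, g1993, was called lower at −2.33 ± 0.08. None of the tested members was called in g3286 to g3288, g3538 to g3542, g7307 to g7310 or g7982 to g7986, whose log2 fold changes lay between −0.92 and 0.94. The 3 members of g3538 to g3542 had the same coding length of 1635 bases and changes of 0.58, 0.78 and 0.44, while 5 of the 8 tested genes near them were called lower.

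**Figure D5:**
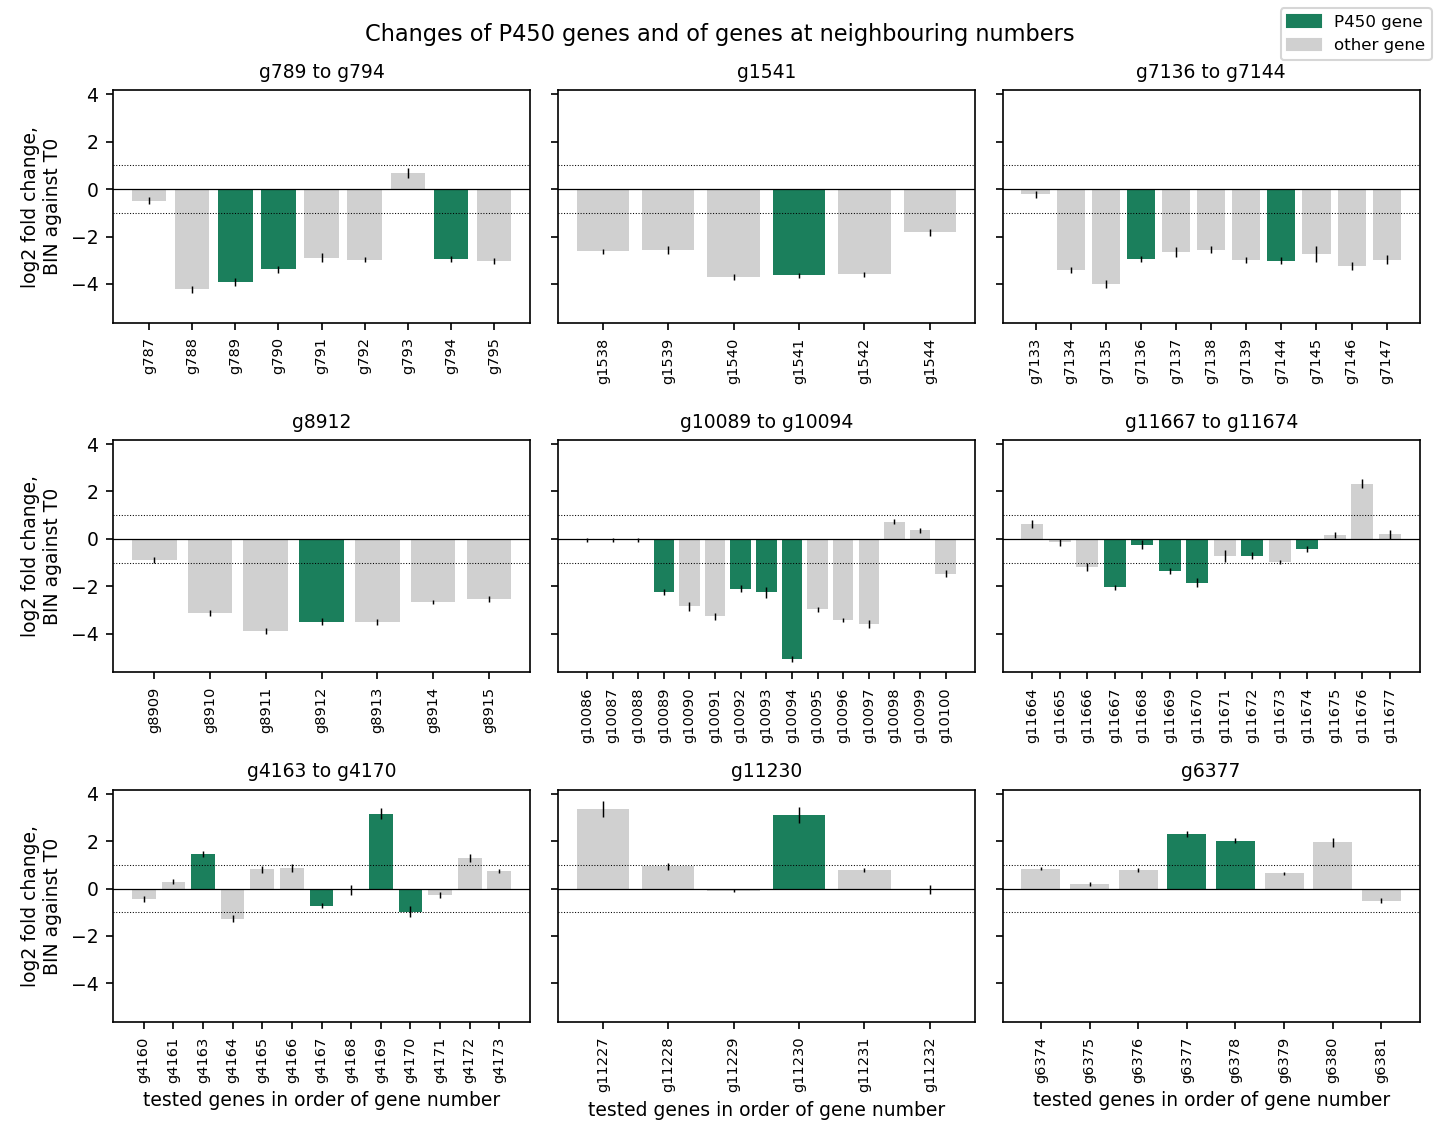
Log2 fold change of BIN against T0 by edgeR, with its SE, for P450 genes (green) and other tested genes (grey) in order of gene number, in 9 stretches; dotted lines mark the threshold of 1 in size. Around g1541, g8912 and g7136 to g7144 nearly all genes are past −1, whereas near g11230 only g11227 goes past 1 with the P450 gene.

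Neighbours of members that fell were often lower too. Counted once for each P450 gene they adjoin, 80 of 210 non-members (38.1%) within 3 numbers of the 47 genes called lower were themselves called lower. Near the other genes of the table that were called lower, the share was 21.3%. These other genes include non-members that themselves lie near P450 genes. Near the 92 members not called the share was 18.3% (74 of 404), and near all other genes 14.1%. For the 10 largest falls it was 30 of 46 (65.2%), beside 42.8% near the 107 other genes that fell at least as far. Neighbours of genes that rose did not show a like share. Of the 81 near the 19 genes called higher, 7 (8.64%) were called higher, beside 15.2% near other genes called higher. Near the members not called the share called higher was 5.45%, and near all other genes 11.3%. Near the 8 largest rises it was 4 of 40, and beside other genes that rose as far it was 17.0%. Many of these neighbours lie in a few stretches and are not independent of each other.

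Stretches around abundant P450 genes, chosen after their values were seen, show the genes involved. Within 3 numbers of g8912, 5 of 6 other genes were called lower, with g8910 at −3.12, g8911 at −3.89 and g8913 at −3.51. From g7133 to g7147, which holds the P450 genes g7136 (−2.95 ± 0.12) and g7144, 8 of 9 other tested genes were called lower, from −2.56 for g7138 to −4.00 for g7135. All 5 other tested genes near g1541 were called lower, among them g1540 at −3.71 and g1542 at −3.60. In the stretch of g789 to g794, g788 fell by 4.23 on the log2 scale, and g791, g792 and g795 were between −3.03 and −2.89. Of the other tested genes there, g787 at −0.48 and g793 at 0.69 were not called.

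Flavin oxidoreductases of the CAZy subfamily AA3_2, which holds aryl alcohol oxidases and glucose oxidases, were found within 3 numbers of a P450 gene in 2 of the stretches examined. The P450 gene g5356 changed by −2.57 ± 0.11 and the AA3_2 gene g5357 by −4.44, and 4 more of the 6 genes near g5356 were called lower. Likewise the AA3_2 gene g10342 was at −3.87, within 3 numbers of the P450 gene g10339. Isolated falls also occurred, since none of the 4 tested genes near g9414 was called. Among risers, g11230 had a companion in g11227 at 3.38, and the pair g6377 and g6378 was followed by the alcohol dehydrogenase gene g6380 at 1.95. No neighbour of g2387 or g5401 was called higher.

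Coding lengths of the P450 models were recovered from the ratio of counts to TPM. Their median was 1506 bases, with quartiles of 1219 and 1635, against 1107 for all genes. Most models, 119, had from 1100 to under 2000 bases, while 31 were shorter and 8 longer. The medians of the genes called lower, called higher and not called were 1506, 1491 and 1512 bases. Among the 31 shorter models 10 were called lower and 5 higher, and among the 119 of the middle class 36 and 12. Over all members the shares were 29.7% and 12.0%, and over all genes of any length 14.5% and 11.3%. With a trend on coding length removed from each library, 16 members were called higher and 52 lower, where 10.6% and 12.2% of all genes were called.

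Among the 8 long models 2 were called higher and 1 lower, beside 11.3% and 14.5% of all genes. Both of those called higher lost their call with the length trend removed. With 3429 bases, g4802 had 67.4, 72.0 and 54.9 normalized CPM in T0 and 190, 191 and 178 in BIN, without overlap, and its log2 fold change of 1.52 became 0.99 with the trend removed. The 2448 bases of g4691 went with a log2 fold change of 1.06 ± 0.09, which was 0.65 with the trend removed and 0.99 without BIN replicate 3, both short of the threshold. A fall of −1.57 ± 0.16 was found for g11570, with 3156 bases. The longest model, g3300 with 3579 bases, was at 0.55 ± 0.07 and not called, and at −0.0037 with the trend removed.

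Short models were in part found side by side. In 8 of the consecutive pairs both models had under 1100 bases, a limit set after the lengths were seen, and the 2 lengths added up to between 1314 and 1695 bases, close to the length of a usual member. The pair g6377 and g6378 summed to 1494 bases and changed alike, by 2.29 and 2.02. In contrast, g10093 and g10094 summed to 1380 bases and changed by −2.26 and −5.06, and g4169 and g4170 summed to 1695 bases and changed by 3.17 and −0.97. Alike in direction were g9350 and g9351, at −1.44 and −1.19, while the pairs g666 with g667, g8210 with g8211 and g10111 with g10112 held no called gene. In g7758 with g7759 the second was called lower at −1.17 ± 0.30, and without T0 replicate 1 it was at −0.79 and not called. Whether such pairs are parts of 1 gene was not tested. How reads were counted per gene is not given in the sources used here, so reads from near-identical P450 copies may have been divided between genes, and single values in this multigene family are uncertain in that respect.

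Other oxygenases and electron carriers of the study's redox list did not move one way. The list taken here held 21 genes, chosen by a domain (the P450 domain outside the P450 class, flavin or cytochrome b5 type electron transfer, flavin monooxygenase or dioxygenase domains) or by a Gene Ontology term for such an activity alone. Of its 17 tested genes 4 were called higher and 5 lower, beside 11.3% and 14.5% of all genes, and their median log2 fold change was −0.25. The largest rise was that of g6178, which carries an N-terminal catechol dioxygenase domain (PF04444). Its normalized CPM was 9.34, 7.75 and 5.68 in T0 and 92.6, 106 and 133 in BIN, a change of 3.89 ± 0.20. The cytochrome b5 domain gene g2511 went from 100, 84.0 and 95.5 to 326, 282 and 280, a change of 1.67 ± 0.10. It is annotated with an oxidoreductase activity, and whether it passes electrons to P450 enzymes was not tested.

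Among those that fell, g6399 has an oxidoreductase domain that binds NAD (PF00175), of the kind found in P450 reductases and other flavoproteins. Its values were 199, 198 and 188 in T0 and 92.3, 89.6 and 90.1 in BIN, a change of −1.11 ± 0.07. The other genes called higher were g4086 at 1.59 and g2917 at 1.15, a 2-oxoglutarate-dependent oxygenase domain gene and a gene annotated with dioxygenase activity. Those called lower were, beside g6399 and g10097, g1387 at −1.93, g9655 at −1.79 and g523 at −1.08, which carry oxygenase domains or terms as well. The call of g523 was lost without BIN replicate 1 (−0.95) or T0 replicate 2 (−0.96). The second P450 domain gene of the redox class, g7953, was at −0.55 ± 0.11 and not called.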

How the data were processed

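Libraries were made from mRNA and sequenced on the Illumina HiSeq platform. Per the study's methods and the submitters' processing notes, the authors trimmed reads with Trimmomatic 0.32, removed rRNA with SortMeRNA, used TopHat2 for mapping to the assembly of the strain, and deposited counts per gene without normalization. The counting program is not given in the sources used here. The TPM the authors deposited were the same counts divided by coding length and scaled to 1000000 per library, so coding lengths were recovered from the ratio (99.3% were multiples of 3). P450 genes and annotations were read from the study's supplementary gene list. The members, lists and named genes were chosen with earlier results of these data known. They were the 6 most abundant members of each condition, the 10 largest falls, the 8 largest rises, the markers g10094 and g4169, and the members of runs and called pairs.

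All 10015 genes passed edgeR's filterByExpr. Counts of all 6 libraries were fitted with edgeR 4.0.16 under R 4.3.3 (TMM, robust glmQLFit, glmQLFTest, no block), and p-values were adjusted by Benjamini-Hochberg. The SE is the size of the log2 fold change divided by the square root of F. Levels are TMM-normalized CPM. On simulated counts, 200 of the 10015 genes were changed, all by more than the fold threshold, and 199 of these 200 were recovered. Changes near the threshold, or of a larger share of genes, were not simulated. With 3 libraries a group, permutation of libraries cannot give a p under 0.1. Alternatives were DESeq2 1.42.0 (the study's tool), RLE factors, library size alone, no low-count filter, a mean of at least 1 TPM, unadjusted p, glmTreat, a replicate block, each library left out, limma 3.58.1 on log2(TPM + 1) and log2(TPM + 0.1), and removal of a lowess trend (span 0.3) on coding length. A RefSeq gene list of another strain (13840 genes) shared 0 identifiers with the table, so no position is given.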

Additional observations from a re-analysis of the deposited data

How the results depend on the processing

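In the 17 alternatives, 12 of the 19 genes called higher and 34 of the 47 called lower kept their call throughout. The setting without a low-count filter repeats the main fit, since every gene passed the filter. A mean of at least 1 TPM still left 10010 genes. Unadjusted p can add calls but cannot remove any. The counts of higher and lower genes were 19 and 47 with DESeq2, RLE factors, the other filter choices and unadjusted p, 23 and 45 with library size alone, 13 and 39 with glmTreat, 16 and 52 with the length trend removed, 23 and 34 on log2(TPM + 1) and 28 and 36 on log2(TPM + 0.1). Leaving out each library gave 17 to 20 higher and 47 to 53 lower genes, a median log2 fold change from −0.50 to −0.33 (the latter without T0 replicate 2), a BIN sum of 39.3% to 42.6% of T0 in TPM, 7 to 8 consecutive pairs with the same call, and 4 to 5 other oxygenases lower, with 4 higher each time. The median moved to −0.30 with library size alone, where the median of all genes was 0.13. It changed sign on log2(TPM + 1) and log2(TPM + 0.1), to 0.016 and 0.021, where the medians of all genes were 0.40 and 0.43. The sum in BIN was 30.7% of T0 in normalized CPM and 47.1% without the most abundant member of each condition. At numbers at most 3 apart, 11 pairs had the same call. With library size alone, 3 other oxygenases were lower in place of 5. Causes of these changes were not tested.

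Whether same-numbered T0 and BIN libraries came from shared cultures is not stated. Correlations of this kind cannot decide it, because a shared culture need not leave one. Same-numbered libraries had correlations of their deviations of 0.035, 0.0088 and −0.10. With the replicate block the calls were 20 higher and 47 lower, and the median was −0.42.

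Of the 40 named genes that were called, 29 kept their call in every alternative, 11 lost it in some and none changed sign. Of the named genes that were not called, 7 passed the threshold in some alternative, g3287 (1.33) and g7758 (−1.11) without T0 replicate 2, g4805 (−1.07) without T0 replicate 1 and g7983 (−1.05) without T0 replicate 3 among them. Signs changed for 7 named genes that were not called. These were g3288 (−0.021 to 0.089 with a library left out and −0.47 with the length trend removed), g3300 (−0.0037 with the trend removed) and g4168 (0.059 with library size alone, −0.24 to 0.25 with a library left out, and 0.42 and 0.43 on the TPM scales). On log2(TPM + 1) and log2(TPM + 0.1) they were also g7307 (0.14 and 0.17), g7310 (0.063 and 0.083), g11037 (0.23 and 0.24) and g11668 (0.15 and 0.20). The lowest total count, 9541028, limits the precision of members near 1 CPM.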
